A study of Bos taurus with 24 samples.

Results

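The genes followed were those of the heat shock proteins HSP70, HSP110 and HSP90, the mitochondrial chaperonin, the DNAJ co-chaperones and the BAG family. They were read in gluteus medius muscle of crossbred beef cows. Members were taken by gene symbol, with the brightest array feature kept for each gene, and a gene was kept where its mean over the 24 arrays reached 6.76 on the log2 scale, the 25th percentile of all feature means. Of 65 genes that matched by symbol, 57 were kept, out of 14198 named genes tested and 18444 named genes on the array. The members were 7 of 9 HSP70 genes, 3 of 3 HSP110 genes, 3 of 3 HSP90 genes, HSPE1 of the 2 chaperonin genes, 4 of 4 DNAJA, 10 of 13 DNAJB and 23 of 25 DNAJC genes, and 6 of 6 BAG genes. DNAJC8 lay just inside the limit with a mean of 6.86, and HSPA6 at 6.69 and HSPD1 at 6.68 lay just outside it. The other genes under the limit were HSPA1L, DNAJC6, DNAJB3, DNAJB7, DNAJB8 and DNAJC30. Array features for HSPA5, HSPA1A and DNAJC19 carry several gene names, so no value is given for these genes.

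The study asked which muscle transcripts differ with body weight gain after feed restriction and free feeding. It chose the 6 highest and the 6 lowest gaining of 121 cows, ranked by gain during free feeding. Each cow gave a needle biopsy on day 105 of 112 days on a restricted diet of 120 kcal metabolizable energy per kg of metabolic body weight, and another on day 49 of the 112 days of free feeding that came next. The groups were therefore high gain cows at biopsy 2, high gain cows at biopsy 1, low gain cows at biopsy 2 and low gain cows at biopsy 1, with 6 arrays in each. Biopsy 1 was read as the restricted biopsy and biopsy 2 as the free feeding biopsy, in the order of the protocol. All cows passed through both diets in the same order, so diet, time and the cow's age move together, and the labels used here give no ages. Cows are numbered 1 to 6 within each gain class.

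Chaperones hold unfolded proteins and help them fold. HSP70 binds and releases its clients in a cycle driven by ATP. DNAJ proteins deliver the client and speed ATP hydrolysis, and HSP110 and several BAG proteins release the ADP. HSP90 takes over clients that are close to their final shape. In muscle the system works on proteins under mechanical load, and DNAJB6, BAG3 and DNAJB4 are all genes of inherited human muscle disease. Heat, injury and other stress raise the cytosolic members through the transcription factor HSF1, while members of the endoplasmic reticulum follow the unfolded protein response.

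The arrays of the 2 biopsies appeared to have been scaled separately by the authors. Array medians lay between 7.79 and 7.85 at biopsy 2 and between 7.68 and 7.88 at biopsy 1, and the highest value was 19.93 at biopsy 2 and 19.81 at biopsy 1, so biopsy and array set cannot be told apart. Changes between biopsies were computed after quantile normalization of the 24 arrays, and gain class differences within a biopsy from the deposited values. The mean of the muscle fibre markers was between 18.97 and 19.64 on 23 arrays and 15.46 on the biopsy 1 array of low gain cow 4, where the muscle genes ACTA1 and CKM were at 14.5 and 14.6 and the fibroblast gene DCN was at 17.7. That biopsy 1 array of low gain cow 4 also had the highest biopsy 1 means of the adipocyte (13.78), fibroblast (12.48), leukocyte (8.78) and endothelial (12.26) markers. The biopsy 2 array of high gain cow 4 had the highest mean of the adipocyte markers, 15.57. The other biopsy 2 arrays lay between 9.90 and 13.78. Because these are bulk samples, fewer cells of a type and less RNA per cell cannot be told apart. No member came within 0.05 of the upper limit of the deposited values on any array. That limit differed between the array sets, so it does not show whether a feature was saturated at the scanner.

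Between biopsies, 6 of the 57 members were higher at biopsy 2 and 12 were lower over all 12 cows (limma with cow as a block, adjusted p under 0.05). That is 31.6% of the members, against 38.1% of all genes tested, of which 20.8% were higher and 17.4% were lower. Among the members that fell were the muscle DNAJ protein DNAJB4, the main cytosolic HSP70 gene HSPA8 and several J proteins of the endoplasmic reticulum. Those that rose were mostly DNAJC genes, led by the synaptic vesicle co-chaperone DNAJC5, but more DNAJC genes fell than rose. The median change of the members was -0.04 on the log2 scale, where 1 unit is a 2-fold change, and that of all genes was 0.02. Without high gain cow 4 and low gain cow 4, 23 members passed, 7 higher and 16 lower. With the values as deposited, 23 members passed, 12 higher and 11 lower, and the median change of all genes was then 0.12. The shares of all genes that passed under these other settings are not given here, so these counts have no background beside them.

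**Figure D1:**
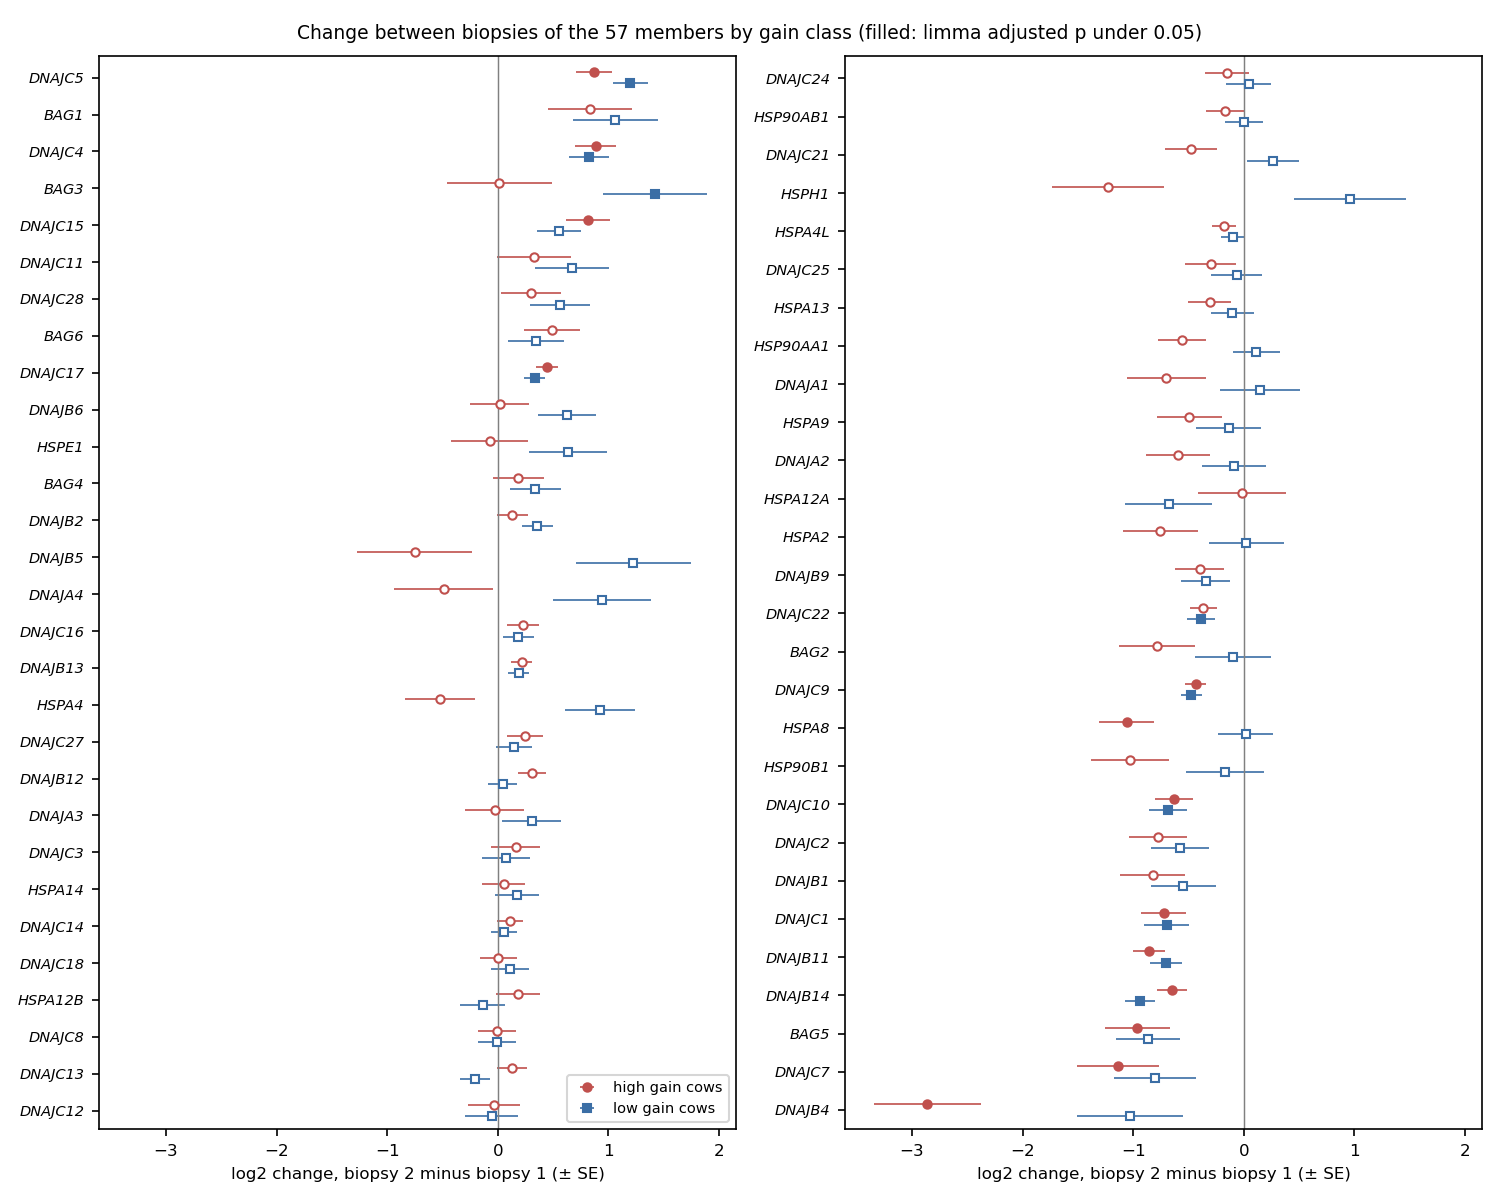
Log2 change from biopsy 1 to biopsy 2 of the 57 members by class, with circles for high gain cows, squares for low gain cows, bars for the standard error and filled marks for limma adjusted p under 0.05. DNAJB4 lies lowest at -2.86 in high gain cows, DNAJB11, DNAJB14, DNAJC1, DNAJC9 and DNAJC10 are filled on the lower side in both classes, and DNAJC4, DNAJC5 and DNAJC17 are filled on the upper side in both.

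Of the HSP70 genes, 1 of 7 members changed over all cows. HSPA8 encodes the constitutive cytosolic HSP70, which also strips clathrin from vesicles. Its levels (lowest, median and highest of 6) were 15.56, 16.19 and 16.79 in high gain cows at biopsy 2, against 16.81, 17.24 and 17.87 at biopsy 1. In low gain cows they were 16.08, 16.77 and 16.87 at biopsy 2, against 15.26, 16.86 and 17.30 at biopsy 1. The biopsies did not overlap in high gain cows and overlapped in low gain cows. HSPA8 fell by 0.52 ± 0.18 over all cows (change ± SE; limma adjusted p = 0.0334) and by 1.06 ± 0.25 in high gain cows (adjusted p = 0.0109), with 6 of 6 cows down. The change in low gain cows was 0.02 ± 0.25. The call over all cows was lost in 8 of the 12 fits that left out 1 cow (high gain cows 1, 2, 4 and 5 and low gain cows 1, 2, 5 and 6), for example without high gain cow 1 (-0.46, adjusted p = 0.0783). It was also lost without high gain cows 1 and 2 together (-0.38, adjusted p = 0.178), with the values as deposited, after median centring and with no cow term. The change in high gain cows without cows 1 and 2 was -0.78 (adjusted p = 0.154).

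HSPA9, the HSP70 of the mitochondrial matrix, also draws proteins in through the inner membrane. Its levels were 15.98, 16.48 and 16.93 in high gain cows at biopsy 2, against 16.44, 17.03 and 17.40 at biopsy 1; low gain cows gave 16.15, 16.41 and 16.54 at biopsy 2, against 14.75, 16.75 and 17.32 at biopsy 1. The biopsies overlapped in both classes, and the change over all cows was -0.31 ± 0.21 (adjusted p = 0.255). HSPA9 was down in 10 of 12 cows, and low gain cow 4 was up by 1.58. Without low gain cow 4 the change was -0.48 in low gain cows, against -0.14 with it, and -0.49 in high gain cows, where HSPA9 then passed (adjusted p = 0.0272). Without high gain cow 4 as well it passed in low gain cows too (adjusted p = 0.0488). HSPA2, HSPA12A, HSPA12B, HSPA13 and HSPA14 did not pass either, with changes between -0.37 for HSPA2 and 0.11 for HSPA14. HSPA13 lies in the microsomal compartment, and HSPA14 works with DNAJC2 at the ribosome.

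None of the 3 HSP110 genes passed over all cows. HSPH1, which exchanges nucleotide on HSP70 and helps to dissolve aggregates, was at 9.75, 10.64 and 10.96 in high gain cows at biopsy 2, against 9.82, 11.13 and 14.42 at biopsy 1. Low gain cows had HSPH1 at 10.66, 11.06 and 11.68 at biopsy 2, against 9.61, 10.06 and 10.75 at biopsy 1. The widest range was that of the high gain cows at biopsy 1. Its change was -1.23 ± 0.51 in high gain cows (4 of 6 down, adjusted p = 0.104) and 0.96 ± 0.51 in low gain cows (6 of 6 up, adjusted p = 0.197). It passed in high gain cows without high gain cow 6, at -1.64, and in low gain cows without high gain cows 1 and 2 (adjusted p = 0.0249). HSPA4, another exchange factor of this group, was at 11.88, 12.71 and 13.14 in high gain cows at biopsy 2, against 11.85, 12.73 and 15.01 at biopsy 1. For HSPA4, low gain cows gave 12.34, 12.70 and 13.20 at biopsy 2, against 11.05, 11.95 and 12.40 at biopsy 1. Its change in low gain cows was 0.93 ± 0.32, with 6 of 6 up (adjusted p = 0.0534). That value passed with the values as deposited, after median centring, with no filter on dim genes, without the trend, and without high gain cow 1, 2 or 6, while without low gain cow 4 it was 0.77 (adjusted p = 0.111). HSPA4L changed by -0.14 ± 0.08 over all cows.

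None of the 3 HSP90 genes passed in a biopsy comparison, although HSP90AA1 and HSP90B1 did so in high gain cows under other settings. HSP90AA1, the stress-inducible cytosolic HSP90 and a myosin chaperone in zebrafish muscle, was at 13.88, 14.29 and 14.48 in high gain cows at biopsy 2, against 14.09, 14.68 and 15.69 at biopsy 1. HSP90AA1 in low gain cows was at 14.14, 14.38 and 15.26 at biopsy 2, against 14.11, 14.33 and 14.76 at biopsy 1. All 6 high gain cows were down and 3 of 6 low gain cows were up. The change of HSP90AA1 in high gain cows was -0.56 ± 0.22 (adjusted p = 0.0828), and it passed without low gain cow 4 (adjusted p = 0.0343), with array weights and without the trend. The constitutive form HSP90AB1 was at 12.13, 12.42 and 13.08 in high gain cows at biopsy 2, against 12.23, 12.55 and 13.23 at biopsy 1. Low gain cows had HSP90AB1 at 12.27, 12.79 and 13.31 at biopsy 2, against 12.38, 12.79 and 12.99 at biopsy 1. The change of HSP90AB1 over all cows was -0.08 ± 0.12.

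HSP90B1 is the HSP90 of the endoplasmic reticulum, a chaperone of secreted and membrane proteins. It was at 11.55, 11.95 and 12.47 in high gain cows at biopsy 2, against 12.37, 12.49 and 14.18 at biopsy 1; low gain cows gave 11.97, 12.01 and 12.51 at biopsy 2, against 11.61, 12.01 and 13.41 at biopsy 1. Its change in high gain cows was -1.03 ± 0.35, with 6 of 6 down (adjusted p = 0.0546), and it passed without low gain cow 4 (adjusted p = 0.0277), without high gain cow 4, with array weights, with no filter on dim genes and with no cow term. HSPE1, the lid of the mitochondrial chaperonin, was at 13.93, 14.40 and 14.66 in high gain cows at biopsy 2, against 13.76, 14.48 and 15.43 at biopsy 1. For HSPE1, low gain cows gave 14.24, 14.69 and 14.95 at biopsy 2, against 12.08, 14.09 and 15.12 at biopsy 1. The groups overlapped in both classes, and the change of HSPE1 over all cows was 0.28 ± 0.25 (adjusted p = 0.393).

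The DNAJA and DNAJB genes encode the J proteins with the classical client-binding layout. None of the 4 DNAJA genes passed, and 1 of 10 DNAJB genes was higher and 4 were lower over all cows. DNAJB4, expressed in muscle and heart, was at 10.93, 12.55 and 13.49 in high gain cows at biopsy 2, against 12.93, 15.26 and 18.17 at biopsy 1. DNAJB4 in low gain cows was at 11.47, 13.06 and 13.66 at biopsy 2, against 13.03, 13.88 and 14.83 at biopsy 1. The biopsies overlapped in each class, yet each of the 12 cows was lower at biopsy 2. By cow the change was -4.16, -5.57, -2.30, -2.52, -1.90 and -0.71 in high gain cows 1 to 6, and -1.42, -1.56, -0.63, -0.43, -0.32 and -1.81 in low gain cows 1 to 6. The first 2 high gain cows thus had the deepest falls. Over all cows DNAJB4 fell by 1.94 ± 0.34 (limma adjusted p = 0.000755), and in low gain cows its change was -1.03 ± 0.48 (adjusted p = 0.15). Without high gain cows 1 and 2 the change over all cows was -1.44 (adjusted p = 0.00133), and that in the remaining high gain cows was -1.86 (adjusted p = 0.0157). The unchanged value in low gain cows then passed (adjusted p = 0.0341).

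**Figure D2:**
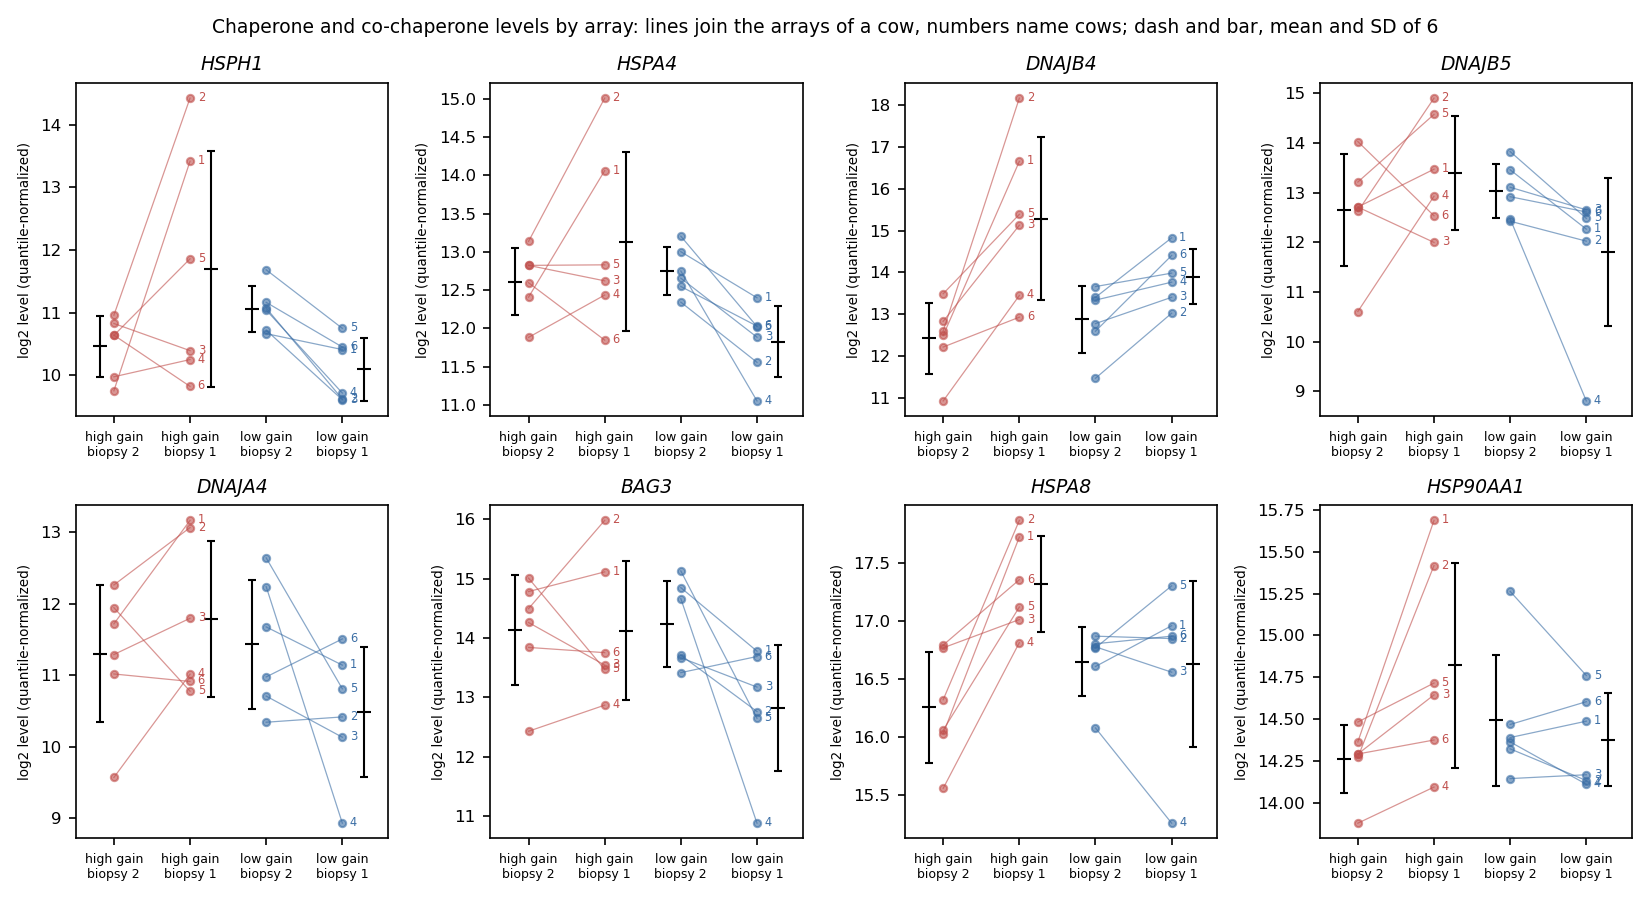
Quantile-normalized log2 levels of 8 cytosolic members on each of the 24 arrays. Lines in the colour of the gain class join the 2 arrays of a cow, numbers name the cows, and bars give the mean and SD of 6. The groups run high gain biopsy 2, high gain biopsy 1, low gain biopsy 2, low gain biopsy 1. DNAJB4 reaches 18.17 and HSPH1 14.42 in high gain cows at biopsy 1, and HSPA8 at biopsy 2 lies below biopsy 1 in high gain cows with no overlap.

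DNAJB1, the main stress-inducible J protein of the cytosol, fell by 0.69 ± 0.21 over all cows (10 of 12 down, adjusted p = 0.019), a call that was lost without high gain cows 1 and 2. In high gain cows its change of -0.82 passed without low gain cow 4 (adjusted p = 0.0443) and with array weights. Its levels were 8.41, 9.07 and 9.75 in high gain cows at biopsy 2, against 9.22, 9.76 and 11.45 at biopsy 1; low gain cows gave 8.91, 9.34 and 9.83 at biopsy 2, against 8.92, 10.01 and 10.58 at biopsy 1. The groups overlapped in both classes. DNAJA1, a cytosolic partner of HSPA8, was at 11.25, 11.90 and 12.45 in high gain cows at biopsy 2, against 11.75, 12.47 and 14.17 at biopsy 1. Low gain cows showed DNAJA1 at 12.06, 12.40 and 12.82 at biopsy 2, against 11.29, 12.42 and 12.55 at biopsy 1. It did not pass, and its 2 array features differed in sign over all cows, with changes of -0.28 and 0.10. DNAJB5, which passed in neither class, changed by -0.75 ± 0.52 in high gain cows and by 1.23 ± 0.52 in low gain cows, where 6 of 6 were up. Low gain cow 4 alone changed by 3.66 for DNAJB5, and without it the low gain change was 0.74. The Z-disc co-chaperone DNAJB6 changed by 0.02 ± 0.26 in high gain cows and by 0.62 ± 0.26 in low gain cows, with no call in either. Low gain cow 4 alone changed by 2.40 for DNAJB6, and the other 5 low gain cows by -0.22 to 0.69. DNAJB13, known from sperm and cilia, rose by 0.20 ± 0.07 over all cows (adjusted p = 0.0286), and its call was lost without high gain cow 1 or 3 or low gain cow 1 or 4, and without high gain cows 1 and 2 together.

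Among J proteins of the endoplasmic reticulum, DNAJB11, DNAJB14, DNAJC1 and DNAJC10 fell in both gain classes. DNAJB9, DNAJB12 and DNAJC3 did not pass, and DNAJB12 went the other way, with 0.18 ± 0.09 over all cows and 10 of 12 up. DNAJB11, a luminal J protein that hands secretory clients to HSPA5, was at 8.08, 8.46 and 8.69 in high gain cows at biopsy 2, against 9.08, 9.19 and 9.79 at biopsy 1. For DNAJB11, low gain cows gave 8.13, 8.28 and 8.44 at biopsy 2, against 8.74, 8.99 and 9.16 at biopsy 1. The biopsies did not overlap over the 12 cows, and DNAJB11 fell by 0.78 ± 0.10 (limma adjusted p = 9.53e-05), by 0.86 ± 0.15 in high gain cows and by 0.71 ± 0.15 in low gain cows. DNAJB14, anchored in the membrane with its J domain in the cytosol, was at 8.13, 8.43 and 8.86 in high gain cows at biopsy 2, against 8.89, 9.13 and 9.30 at biopsy 1. DNAJB14 in low gain cows was at 8.11, 8.30 and 8.63 at biopsy 2, against 8.88, 9.08 and 9.83 at biopsy 1. It did not overlap either, and it fell by 0.79 ± 0.10 over all cows (adjusted p = 5.62e-05).

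DNAJC10, a disulfide reductase of the lumen, fell by 0.66 ± 0.12 over all cows, and DNAJC1, a membrane J protein that touches the ribosome, fell by 0.71 ± 0.14, each in 12 of 12 cows. DNAJC10 was at 10.02 to 10.69 in high gain cows at biopsy 2, against 10.45 to 11.34 at biopsy 1, while low gain cows gave 9.99 to 10.83 at biopsy 2, against 10.73 to 11.44 at biopsy 1. These ranges overlapped in each class. DNAJB9 changed by -0.37 ± 0.16 (adjusted p = 0.0748) and DNAJC3 by 0.12 ± 0.16, with no call. Of the 7 endoplasmic reticulum genes in the list that were tested, 0 were higher and 3 were lower over all cows (17.4% of all genes were lower), with a median change of -0.60. In each gain class 3 of 7 were lower, with a median of -0.63 in high gain cows, where 8.73% of all genes were lower, and of -0.34 in low gain cows, where 9.46% were. Of 15 genes of the endoplasmic reticulum stress response outside the family, 1 was higher and 3 were lower over all cows. The ubiquitin ligase SYVN1 rose by 0.65. The transcription factor DDIT3 fell by 0.67 (adjusted p = 0.000482), the lectin chaperone CALR by 0.88 and the stress sensor ATF6 by 0.31, the last a call that ended without high gain cow 1 or low gain cow 2, 3 or 6.

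The DNAJC genes share only the J domain and vary in the rest. Over all cows 4 of 23 were higher and 6 were lower, where 20.8% of all genes tested were higher and 17.4% were lower. DNAJC5, the cysteine string protein that guards exocytosis, was at 9.85, 9.92 and 10.05 in high gain cows at biopsy 2, against 8.29, 9.27 and 9.56 at biopsy 1. Low gain cows showed DNAJC5 at 9.64, 9.90 and 10.31 at biopsy 2, against 8.44, 8.60 and 9.43 at biopsy 1. The biopsies did not overlap over the 12 cows, and DNAJC5 rose by 1.03 ± 0.11 (limma adjusted p = 2.85e-05). The rise by cow was between 0.44 and 1.59 in high gain cows and between 0.88 and 1.34 in low gain cows.

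DNAJC4 was at 8.52, 8.83 and 9.12 in high gain cows at biopsy 2, against 7.80, 7.93 and 8.03 at biopsy 1; low gain cows gave 8.19, 8.86 and 9.43 at biopsy 2, against 7.56, 8.06 and 8.41 at biopsy 1. It rose by 0.86 ± 0.13 (adjusted p = 0.000275) in 12 of 12 cows. DNAJC15, a J protein of the mitochondrial inner membrane, was at 9.61, 10.14 and 10.57 in high gain cows at biopsy 2, against 8.68, 9.28 and 9.93 at biopsy 1. For DNAJC15, low gain cows gave 9.36, 9.71 and 10.67 at biopsy 2, against 8.73, 9.44 and 9.65 at biopsy 1. It rose by 0.69 ± 0.14 over all cows (adjusted p = 0.00204), in 11 of 12, and was the single member of the mitochondrial list of 6 tested genes that passed. DNAJC17, a nuclear J protein tied to splicing, rose by 0.39 ± 0.07 in 12 of 12 cows, on a low signal of 7.30 to 7.84 in high gain cows at biopsy 2, against 6.84 to 7.29 at biopsy 1.

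The DNAJC genes that fell act in several places. DNAJC7, which binds HSP70 and HSP90 at once, was at 11.59, 12.56 and 12.97 in high gain cows at biopsy 2, against 12.86, 13.52 and 14.39 at biopsy 1. DNAJC7 in low gain cows was at 12.30, 12.69 and 13.07 at biopsy 2, against 11.19, 13.90 and 14.39 at biopsy 1. It fell by 0.97 ± 0.26 (adjusted p = 0.0105) in 11 of 12 cows, low gain cow 4 being the exception. DNAJC2, the ribosome-bound partner of HSPA14, fell by 0.67 ± 0.18, and the histone co-chaperone DNAJC9 fell by 0.45 ± 0.07. DNAJC22 fell by 0.38 ± 0.09 on a low signal of 7.14 to 7.67 over all cows at biopsy 2, against 7.44 to 8.24 at biopsy 1. The other 13 DNAJC members did not pass, with changes between -0.18 for DNAJC25 and 0.50 for the mitochondrial DNAJC11.

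Of the BAG genes, 1 of 6 was higher and 1 was lower over all cows. BAG1, which links HSP70 to the proteasome, was at 11.35, 11.87 and 12.31 in high gain cows at biopsy 2, against 10.19, 11.22 and 11.28 at biopsy 1. Low gain cows had BAG1 at 11.18, 11.96 and 12.48 at biopsy 2, against 8.82, 11.06 and 11.62 at biopsy 1. It rose by 0.95 ± 0.27 (adjusted p = 0.0137) in 10 of 12 cows. Low gain cow 4 alone changed by 3.66, and without it the change was 0.69 (adjusted p = 0.00352), while without high gain cows 1 and 2 it was 0.93 (adjusted p = 0.0541).

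BAG5, which holds several BAG domains and acts on HSP70 exchange, was at 10.73, 11.08 and 11.36 in high gain cows at biopsy 2, against 11.47, 12.05 and 12.69 at biopsy 1. For BAG5, low gain cows gave 10.82, 11.13 and 11.68 at biopsy 2, against 11.03, 11.87 and 13.66 at biopsy 1. The biopsies did not overlap in high gain cows, and BAG5 fell by 0.91 ± 0.21 (adjusted p = 0.00383) in 12 of 12 cows. BAG3, which brings damaged Z-disc proteins to selective autophagy, was at 12.43, 14.38 and 15.01 in high gain cows at biopsy 2, against 12.87, 13.65 and 15.98 at biopsy 1. BAG3 in low gain cows was at 13.42, 14.19 and 15.13 at biopsy 2, against 10.88, 12.96 and 13.78 at biopsy 1. It rose by 1.42 ± 0.47 in low gain cows (5 of 6 up, adjusted p = 0.0491), and without low gain cow 4, the array low in muscle markers, the change was 0.95 (adjusted p = 0.116). BAG2, BAG4 and BAG6 did not pass, with changes of -0.44, 0.26 and 0.42.

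Taken alone, high gain cows had 4 members higher and 9 lower at biopsy 2, 22.8% of the members against 20.3% of all genes tested, of which 11.5% were higher and 8.73% were lower. The members that rose were DNAJC4, DNAJC5, DNAJC15 and DNAJC17. The falls ran down to DNAJB4 at -2.86 ± 0.48 (limma adjusted p = 0.0017), then DNAJC7 at -1.14 ± 0.37, HSPA8, BAG5 at -0.96 ± 0.29, DNAJB11, DNAJC1, DNAJB14, DNAJC10 and DNAJC9. Calls lost with 1 cow left out were DNAJC7 (each cow but low gain cows 4 and 5), BAG5 (high gain cows 1 to 5), DNAJC1 (high gain cow 2 or 5) and DNAJC10 (high gain cow 1 or 4). Without low gain cow 4, whose values enter the shared spread, 22 members passed. Without high gain cows 1 and 2, chosen after their biopsy 1 values were seen, 4 members passed, 1 higher and 3 lower. Leaving out cows can also alter the share of all genes that pass, which is not given for these fits.

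In low gain cows, 4 members were higher and 6 were lower, 17.5% of the members against 20.3% of all genes tested, of which 10.8% were higher and 9.46% were lower. BAG3, DNAJC5 at 1.20 ± 0.16, DNAJC4 at 0.83 ± 0.18 and DNAJC17 at 0.33 ± 0.10 rose. DNAJB14 fell by 0.94 ± 0.14, and DNAJB11, DNAJC1, DNAJC10, DNAJC9 and DNAJC22 fell by less. Calls lost with 1 cow left out were BAG3 (each but high gain cows 2 and 5 and low gain cow 6), DNAJC22 (each but high gain cow 4 and low gain cow 4), DNAJC1 (low gain cow 1, 4 or 5) and DNAJC17 (low gain cow 2 or 5). Without low gain cow 5, 6 members passed. With the values as deposited 13 passed, 9 higher and 4 lower, and after median centring 7 were higher and 6 were lower. These counts too stand without the share of all genes under the same setting.

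**Figure D3:**
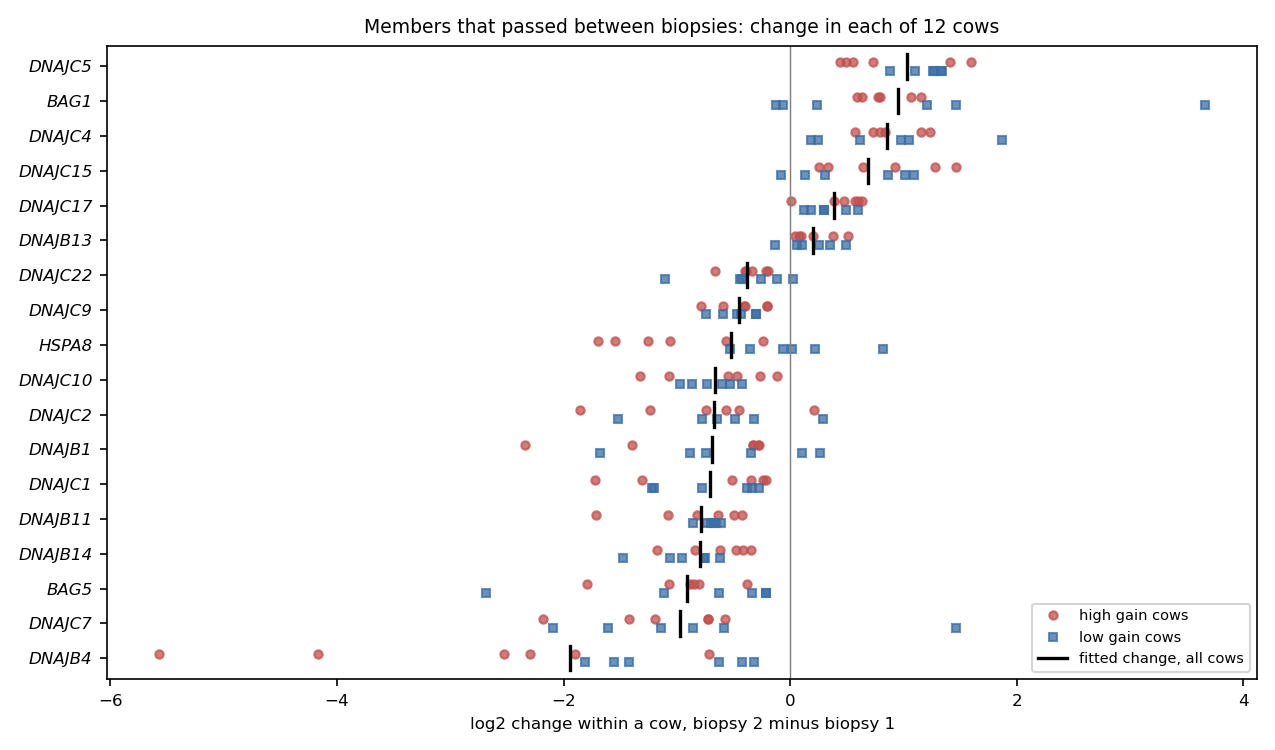
Log2 change from biopsy 1 to biopsy 2 in each cow for the 18 members with limma adjusted p under 0.05 over all cows, with circles for high gain cows, squares for low gain cows and a black bar for the fitted change. All 12 cows lie on 1 side of 0 for DNAJB4, BAG5, DNAJB11, DNAJB14, DNAJC1, DNAJC9, DNAJC10, DNAJC4, DNAJC5 and DNAJC17, and low gain cow 4 lies apart at 3.66 for BAG1.

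Separation between the biopsies without any overlap was seen for few members. Over all cows 1 member, DNAJC5, lay wholly higher (1.63% of all genes did so) and 2, DNAJB11 and DNAJB14, lay wholly lower (1.34% of all genes). In high gain cows 4 members were wholly higher, against 6.05% of all genes, and 5 were wholly lower, against 5.13%. In low gain cows 1 was wholly higher, against 4.89%, and 3 were wholly lower, against 4.13%.

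The change between biopsies was then compared between the classes. No member passed, and no gene of the whole array did (limma, 0% called). At an unadjusted p under 0.05, 8 members had a lower change in high gain cows and 0 a higher one, which is 14% of the members, against 3.61% of all genes (1.9% lower and 1.7% higher). These were HSPH1, HSPA4, DNAJB5, DNAJB4, DNAJA4, HSPA8, HSP90AA1 and DNAJC21, the last a factor of ribosome assembly. The difference, high gain minus low gain, was -1.45 ± 0.45 for HSPA4 (unadjusted p = 0.00607), -2.19 ± 0.72 for HSPH1 (unadjusted p = 0.00878), -1.98 ± 0.74 for DNAJB5 and -1.43 ± 0.63 for DNAJA4, each with an adjusted p of 0.9996. The positive differences of smallest p were those of DNAJC13 (0.33 ± 0.19), DNAJB14 (0.29 ± 0.19) and DNAJB12 (0.27 ± 0.18).

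The difference was negative for 39 of 57 members, with a median of -0.19 beside 0.01 over all genes. It was also negative for 10 of 10 tested genes of a list induced by HSF1, cytosolic but for HSPE1, with a median of -0.78. The immediate early genes moved with them, 17 of 20 negative with a median of -0.59 and 6 at an unadjusted p under 0.05, and their part was not tested. All these genes were read on the same cows, so the counts of negative signs are not independent. High gain cows 1 and 2 carried a large share of these values. By cow the change of HSPH1 was -3.66, -3.46, 0.43, -0.27, -1.22 and 0.82 in high gain cows 1 to 6, against 0.25, 1.45, 1.11, 1.32, 0.93 and 0.71 in low gain cows 1 to 6. Without high gain cows 1 and 2 the difference was -1.03 for HSPH1, -0.83 for HSPA4, -0.83 for DNAJB4 and -1.60 for DNAJB5, and 2 members had an unadjusted p under 0.05. Without high gain cow 4 and low gain cow 4 it was -2.31 for HSPH1, -1.29 for HSPA4, -1.18 for DNAJB5 and -0.77 for DNAJA4. The count of 2 members without high gain cows 1 and 2 is given without the share of all genes in that fit.

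At biopsy 1, under restriction, no member and no gene differed between gain classes (limma, 0% called, lowest adjusted p of a member 0.955). At an unadjusted p under 0.05, 5 members were higher in high gain cows and 0 were lower, 8.77% against 5.04% of all genes (2.23% higher and 2.82% lower). HSPA4 was at 11.86, 12.64 and 15.09 in high gain cows, against 10.81, 11.85 and 12.38 in low gain cows, a difference of 1.40 ± 0.50 (unadjusted p = 0.0144). DNAJA4 was at 10.74, 11.36 and 13.13 in high gain cows, against 8.97, 10.47 and 11.39 in low gain cows, a difference of 1.35 ± 0.52. DNAJB5 was at 11.95, 13.13 and 14.97 in high gain cows, against 8.87, 12.34 and 12.53 in low gain cows, a difference of 1.64 ± 0.67. The classes overlapped for all 57 members, while 0.162% of all genes lay wholly higher and 0.169% wholly lower in high gain cows. HSPH1 differed by 1.64 ± 0.71 and BAG3 by 1.40 ± 0.62, and the negative differences of smallest p were -0.15 ± 0.09 for DNAJB13, -0.11 ± 0.09 for DNAJC17 and -0.29 ± 0.24 for HSPA12B.

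The biopsy 1 arrays of high gain cows 1 and 2 stood at the top for the cytosolic chaperones. HSPH1 was at 13.37 and 14.42 on them, against 9.77 to 11.80 in the other 4 high gain cows, and HSPA4 was at 14.00 and 15.09, against 11.86 to 12.76. DNAJB4 was at 16.67 and 18.21, against 12.87 to 15.36. Cow 2 was the highest of the 12 biopsy 1 arrays for 8 of the 10 genes of the HSF1 list. Cow 1 was highest for the other 2. That list includes the mitochondrial HSPE1. Over the 57 members, cow 1 was highest for 12 (21.1%, against 5.83% of all genes) and cow 2 for 13 (22.8%, against 8.18%). The immediate early genes, which also respond to handling and injury, averaged 9.05 in cow 1, 10.6 in cow 2 and 10.5 in high gain cow 5. FOS was at 8.89, 14.7 and 14.9 in these cows, and HSPH1 in cow 5 was at 11.80. The immediate early genes were thus high in cows 2 and 5 and not in cow 1. Their part in the chaperone levels was not tested.

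Without high gain cows 1 and 2 the gain class difference at biopsy 1 was 0.52 for HSPH1, 0.67 for HSPA4, 0.67 for DNAJA4, 0.65 for BAG3 and 1.22 for DNAJB5, and 0 members had an unadjusted p under 0.05. Without high gain cow 4 and low gain cow 4 it was 1.87 for HSPH1, 1.36 for HSPA4, 1.26 for BAG3 and 1.17 for DNAJB5. In that fit 9 members had such a p. The counts of 0 and 9 are given without the share of all genes in the same fits, so neither can be set against a background. Low gain cow 4 was the lowest biopsy 1 array for 27 of 57 members (47.4%, against 24.3% of all genes), with muscle fibre markers that averaged 15.46 there. What part its tissue makeup had in these values was not tested.

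**Figure D4:**
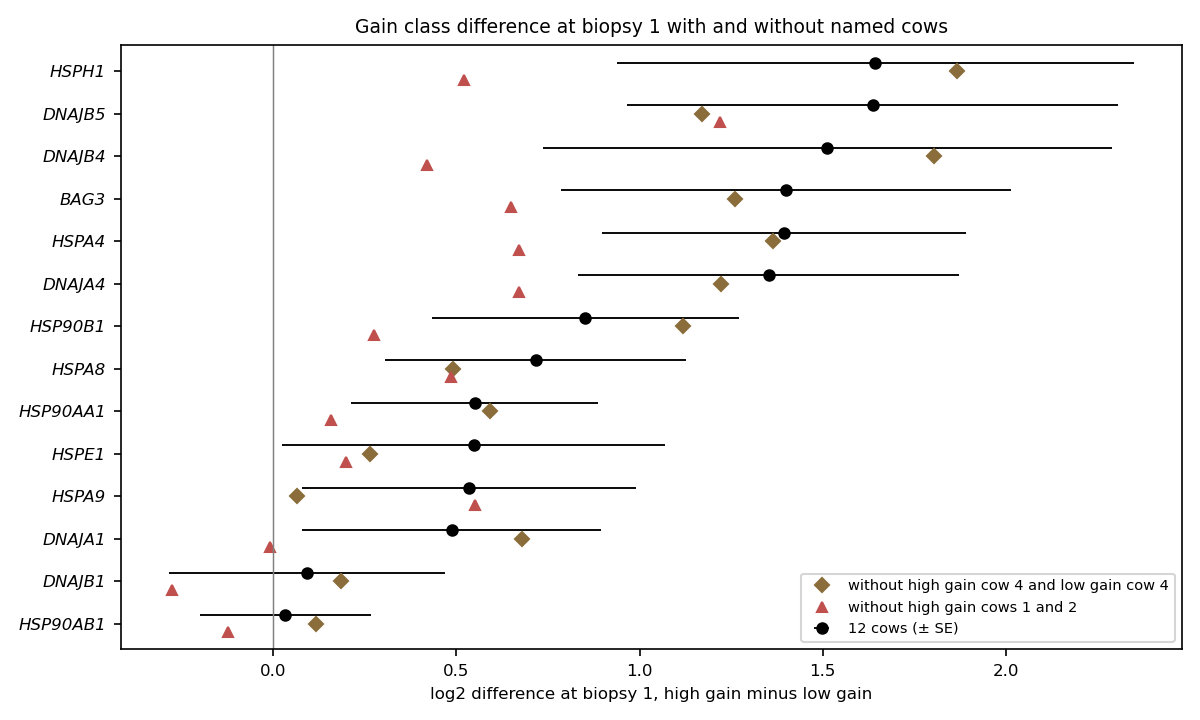
Log2 difference between high gain and low gain cows at biopsy 1 for 14 members, with bars for the standard error over all 12 cows and further marks without cow 4 of each class and without high gain cows 1 and 2. HSPH1 is at 1.64 with all cows, 1.87 without cow 4 of each class and 0.52 without high gain cows 1 and 2.

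At biopsy 2, during free feeding, again no member and no gene passed (limma, 0% called). At an unadjusted p under 0.05, 3 members were lower in high gain cows and 0 were higher, 5.26% against 2.35% of all genes (1.15% lower and 1.2% higher). HSPH1 was at 9.82, 10.65 and 11.07 in high gain cows, against 10.71, 11.13 and 11.80 in low gain cows, a difference of -0.59 ± 0.24. HSPA2, best known from testis, was at 7.87, 8.57 and 9.71 in high gain cows, against 8.84, 9.24 and 10.18 in low gain cows, a difference of -0.67 ± 0.29. DNAJA1 was at 11.35, 11.97 and 12.55 in high gain cows, against 12.16, 12.50 and 12.95 in low gain cows, a difference of -0.47 ± 0.22. All 57 members overlapped between the classes, as did all but 0.0352% of genes in each direction. The difference was negative for 10 of 10 tested genes of the HSF1 list, the mitochondrial HSPE1 included, with a median of -0.28. The median was -0.06 over the 57 members and 0.00 over all genes. The immediate early genes moved the same way at biopsy 2: 18 of 20 were negative, with a median of -0.52, and 4 (JUND, JUNB, FOSB and MYC) had an unadjusted p under 0.05. FOS was at 8.74, 10.73 and 13.54 in high gain cows, against 9.94, 13.05 and 15.36 in low gain cows. Their part in the chaperone values was not tested, and the signs of genes read on the same cows are not independent. The positive differences of smallest p were 0.29 ± 0.21 for DNAJC3, 0.16 ± 0.12 for DNAJC14 and 0.16 ± 0.12 for DNAJC13.

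With both biopsies in 1 fit, no member and no gene differed between the gain classes (limma, 0% called). At an unadjusted p under 0.05, 1 member was higher, 1.75% against 3.7% of all genes (1.46% higher and 2.24% lower), and this was DNAJB11 at 0.22 ± 0.08. HSPA4 at 0.63 ± 0.31 and DNAJC3 at 0.29 ± 0.15 followed on the higher side, and DNAJB13 at -0.13 ± 0.06, DNAJC12 at -0.34 ± 0.20 and HSPA2 at -0.26 ± 0.23 had the smallest p on the lower side.

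Spread between cows of 1 group was wide for several members. The median SD within a group was 0.428 for the members, against 0.294 for all genes, and 9 members (15.8%) exceeded the 90th percentile of all genes. These were DNAJB4 (SD 1.22), DNAJB5 (1.11), HSPH1 (1.03), BAG3 (1.02), DNAJA4 (0.973), DNAJC7 (0.741), HSPA4 (0.721), HSPA12A (0.716) and HSPE1 (0.715). The SDs include the biopsy 1 array of low gain cow 4, low in muscle fibre markers. It was the lowest of its group for BAG3 (10.655, nearest value 12.599), DNAJB5 (8.8704, nearest 11.812) and DNAJC7 (10.928, nearest 13.442). How much it widened the spread was not tested. HSPH1, HSPA4, DNAJB5, DNAJA4 and BAG3 are also the 5 members with an unadjusted p under 0.05 between gain classes at biopsy 1.

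**Figure D5:**
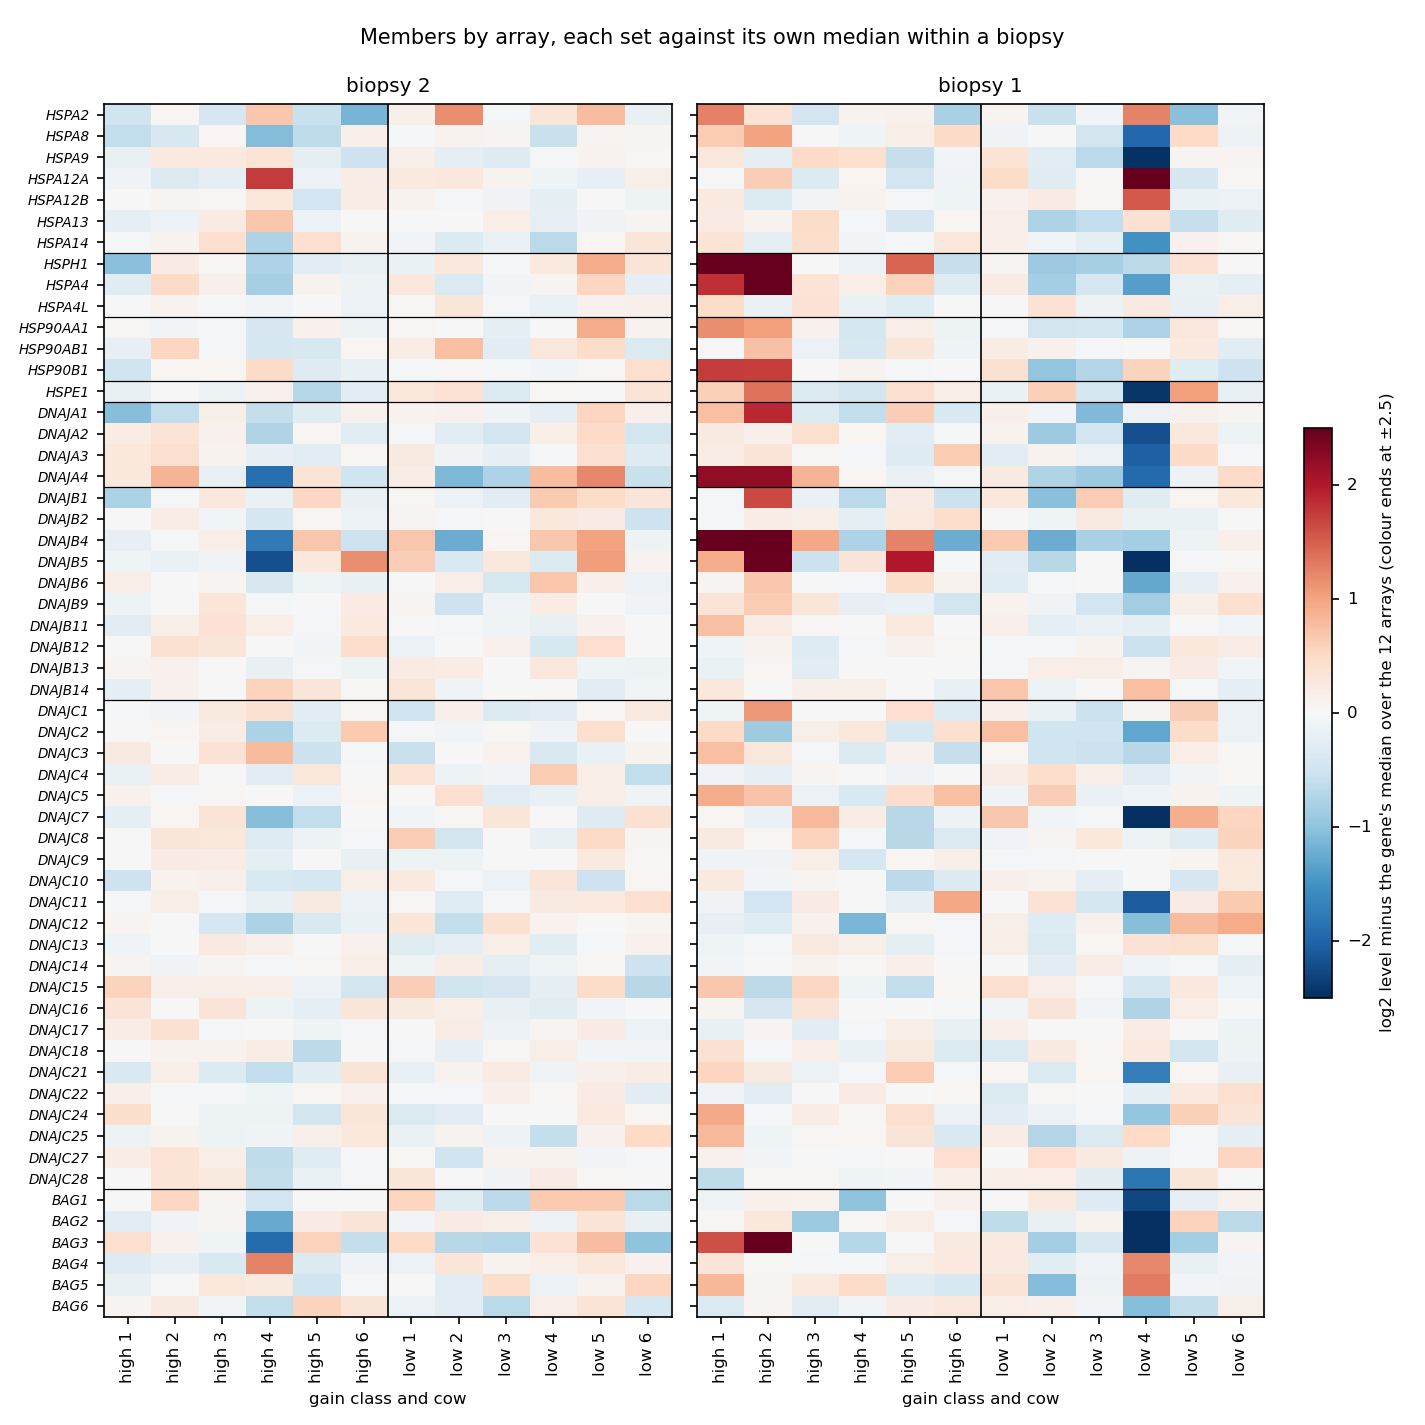
Log2 level of each of the 57 members on each array minus the gene's median over the 12 arrays of that biopsy, with biopsy 2 on the left, biopsy 1 on the right, high gain before low gain, and colours that end at -2.5 and 2.5. High gain cows 1 and 2 at biopsy 1 are high across HSPH1, HSPA4, DNAJA4 and DNAJB4, and low gain cow 4 at biopsy 1 is the lowest array for 27 members.

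Partners of the chaperones outside the symbol rule were read from a fixed list of 35 tested genes. Over all cows 6 were higher and 7 were lower, with a median change of -0.03. These shares were close to those of all genes tested, of which 20.8% were higher and 17.4% were lower. The heat shock factor HSF4 rose by 0.91, the HSP70-linked ubiquitin ligase STUB1 by 0.96 and the adaptor SGTA by 0.81. ST13, which steadies the client-bound form of HSP70, fell by 0.88, the HSP90 cofactor PTGES3 by 0.76 and the mitochondrial exchange factor GRPEL2 by 0.82. In high gain cows 2 were higher and 6 were lower, among them HSF2 at -1.08 and CHORDC1 at -0.85, and in low gain cows 4 were higher and 4 were lower. Of all genes, 11.5% were higher and 8.73% lower in high gain cows, and 10.8% and 9.46% in low gain cows. Of the 8 subunits of TRiC, the chaperonin that folds actin and tubulin, CCT7 rose by 0.78 and CCT2 fell by 0.59 over all cows.

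The marker lists give the tissue beside these changes. Of the 15 muscle fibre markers tested, 11 were within 0.05 of the deposited upper limit on 12 or more of the 24 arrays. A change in muscle content could therefore not be read from most of them. Over all cows 0 of these 15 and 0 of 10 fibroblast markers passed. Of 15 adipocyte markers 3 were higher (AQP7 by 1.97, PNPLA2 by 1.32 and LPL by 1.25). The other adipocyte markers did not pass. Some of them had positive changes, such as FASN (2.36) and SCD (1.48), while FABP4 (-1.10), ADIPOQ (-0.68) and PLIN1 (-0.34) had negative ones. Of 10 leukocyte markers 3 were higher and 4 were lower. Of 8 endothelial markers CLDN5 rose by 0.26 and TEK fell by 0.73. Of 20 immediate early genes 3 were higher and 1 was lower. Beside these lists, 20.8% of all genes tested were higher and 17.4% were lower. The part of these shifts in the chaperone changes was not tested.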

How the data were processed

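Biotin-labelled cRNA from 250 ng of total RNA was hybridised to Affymetrix arrays, per the labels' protocols. The authors deposited 1 table of log2 values with 26773 features on 24 arrays; Affymetrix Expression Console and Transcriptome Analysis Console are named in the submitters' processing notes, and neither labels nor headers state the summary method or genome build. That the log base is 2 was taken from the range of the values. Platform annotation gave 18790 features 1 gene, 385 several and 7598 none.

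For each gene the brightest feature was kept, and genes whose mean was under the 25th percentile of all feature means were left out, leaving 14198. Biopsy changes were fitted with limma 3.58.1 (R 4.3.3) on quantile-normalized values, with gain class by biopsy and cow as a block; gain classes within a biopsy were fitted on the deposited values, and over both biopsies on each cow's mean. Moderation used a trend, and p-values were adjusted by Benjamini-Hochberg over all genes tested. Fits were tested on simulated data. The 2 arrays of a cow are paired by the cow named in the labels: the correlation of their deviations had a median of 0.157 (-0.202 to 0.348), against 0.0266 between cows. The number of arrays limits the precision. Figures were drawn with matplotlib 3.10.9. The members, the gene lists and the genes to be described were chosen with earlier results of these data known. Described in each comparison were a set of main chaperones, the 5 members of largest change in each direction among those that passed, and the 3 of smallest p where fewer than 3 passed.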

Additional observations from a re-analysis of the deposited data

Results flagged for a closer look

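In 14 of 124 sets of 6 deposited values (31 members, 4 groups), 1 array stood apart by Dixon's test, where chance gives about 1 in 20. Of these, 6 came from the biopsy 1 array of low gain cow 4, the array low in muscle fibre markers, as the lowest of its group: BAG1 at 8.8799, BAG3 at 10.655, DNAJB5 at 8.8704, DNAJC21 at 9.3564, DNAJC7 at 10.928 and HSPA9 at 14.431. In the same group DNAJA1 was lowest in cow 3 at 11.172, and DNAJC5 was highest in cow 2 at 9.2513. In high gain cows at biopsy 1, BAG1 was lowest in cow 4 at 10.132 and DNAJB11 was highest in cow 1 at 9.7756. In low gain cows at biopsy 2, cow 5 was highest for DNAJC2 at 11.731 and HSP90AA1 at 15.378, cow 6 was highest for HSP90B1 at 12.538, and cow 4 was lowest for HSPA8 at 16.188. No member moved one way in every cow of a class and the opposite way in every cow of the other.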

How the results depend on the processing

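Members that passed over all cows numbered 18, and between 16 and 21 with each cow left out. In high gain cows the 13 became 10 to 22 with each cow left out, 26 with array weights, 23 without high gain cow 4 and low gain cow 4, and 4 without high gain cows 1 and 2, a choice made after seeing the data. Those of low gain cows, 10, became 6 to 11. The 4 comparisons of gain class kept 0 in each of these. With no replicate block, that is without pairing the arrays of a cow, 20 members passed over all cows, 15 in high gain and 12 in low gain cows, and with cow as a random replicate block the gain class comparison over both biopsies kept 0. As deposited, 14 passed in high gain cows, 6 higher and 8 lower. Shares of all genes under the same settings are not given here, so these counts are not a result about the members alone. Among 1320 alternative values of called members and listed partners, 1201 kept the call, 119 lost it and 0 reversed. Some values that had not passed turned sign, and the cause was not tested. For the change in high gain cows, without cows 1 and 2 DNAJA1 became 0.027, HSPA4 0.098 and HSPE1 0.198, as deposited HSPE1 became 0.041, and with each cow left out HSPE1 ran from -0.267 to 0.078 and BAG3 from -0.291 to 0.314. For the change in low gain cows, HSP90AB1 became -0.026 and HSPA8 -0.330 with cyclic loess; with array weights HSP90AB1 became -0.024, HSP90B1 0.070 and HSPA8 -0.081; as deposited HSP90B1 became 0.085 and HSPA9 0.014; with median centring HSP90B1 became 0.017; and without cow 4 of each class HSP90B1 became 0.090 and HSPA8 -0.142. With each cow left out DNAJA1 ran from -0.0062 to 0.274, HSP90AB1 from -0.099 to 0.079, HSP90B1 from -0.308 to 0.090 and HSPA8 from -0.142 to 0.129. For the gain class difference at biopsy 1, without high gain cows 1 and 2 DNAJA1 became -0.010, DNAJB1 -0.276 and HSP90AB1 -0.124; with array weights DNAJB1 became -0.259 and HSP90AB1 -0.0045; with quantile normalization HSP90AB1 became -0.089; and with each cow left out DNAJB1 ran from -0.225 to 0.242 and HSP90AB1 from -0.103 to 0.127.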
